A study of Mus musculus with 6 samples.

Results

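The ligand gene Jag1 and 7 other genes of the Notch pathway, namely Notch1, Notch2, Adam10, Rbpj, Maml1, Hes1 and Dtx4, were followed in adherent bone marrow-derived cells treated with heme or vehicle. The 8 genes were taken by name from the 19938 genes that the array annotation names, each through a probe set that names that gene alone. A gene with more than 1 such probe set, which was Rbpj alone, is represented by whichever averaged highest across all 6 arrays. That mean level was the only measured value in the choice of probe sets. The genes themselves were listed with earlier results of these data known, so the p-values below give each gene's place in a fit over all genes and are not independent evidence.

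Marrow from Spic(igfp/igfp) mice, in which both copies of the gene for the transcription factor SPI-C carry the igfp allele, was cultured in 20 ng/ml GM-CSF, a growth factor under which marrow gives rise to macrophages and dendritic cells. On day 6 the cultures received 80 µM heme (the labels write µm) or vehicle, a sodium chloride solution with ammonium hydroxide. Floating cells were discarded and RNA of the adherent cells was measured at 6, 24 and 72 h on 1 array for each treatment and time, so the groups were heme at 6, 24 and 72 h against vehicle at 6, 24 and 72 h, all of the same genotype and cytokine. The labels do not say what the igfp allele carries, how old the mice were, or whether separate mice or cultures stand behind the 6 arrays. The spread behind the p-values below may therefore hold no variation between mice or between cultures.

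Notch signalling works by contact between cells. A ligand on one cell, such as JAG1, binds a Notch receptor on its neighbour, the protease ADAM10 and then the gamma-secretase complex cut the receptor, and the freed inner part joins the DNA-binding protein RBPJ and the co-activator MAML1 to switch on genes such as Hes1. Without that inner part RBPJ can act as a repressor. In mice, Notch2 and Rbpj are required for a subset of splenic dendritic cells.

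With heme, Jag1 and Rbpj were higher at all 3 time points, and none of the other 6 genes passed the test; Hes1 could not be tested. Jag1 was at least 2.71-fold above vehicle at 6 h, a bound that was 3.42-fold at 24 h and 5.43-fold at 72 h. Rbpj was 1.73-fold, 1.45-fold and 2.15-fold higher. The call for Rbpj passed narrowly and was lost in 4 of 10 alternative settings given with its values below. Hes1, the best known target gene, stayed under the level filter on all 6 arrays.

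Because Jag1 and Rbpj were the 2 genes that rose, the 250 bases before their annotated start sites are shown first, 5′ to 3′ on the strand of the gene, from RefSeq on build GRCm38.p6. Capitals mark matches to TGGGAA, the core of the sequence that RBPJ binds, on either strand. For Rbpj, which has 2 overlapping windows in the table, the first is shown. The Jag1 window is chr2:137116521-137116770 on the minus strand and the Rbpj window is chr5:53590096-53590345 on the plus strand.
Jag1: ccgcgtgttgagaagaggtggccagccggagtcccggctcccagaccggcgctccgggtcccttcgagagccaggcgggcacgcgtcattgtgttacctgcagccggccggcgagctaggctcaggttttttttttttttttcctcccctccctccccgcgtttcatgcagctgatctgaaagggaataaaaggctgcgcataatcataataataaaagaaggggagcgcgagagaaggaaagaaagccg
Rbpj: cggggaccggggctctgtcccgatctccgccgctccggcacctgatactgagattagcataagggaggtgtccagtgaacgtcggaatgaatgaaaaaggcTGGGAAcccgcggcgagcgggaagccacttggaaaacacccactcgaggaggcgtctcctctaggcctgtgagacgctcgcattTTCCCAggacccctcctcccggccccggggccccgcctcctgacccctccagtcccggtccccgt

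The Rbpj window held 2 matches to TGGGAA, on the plus strand beginning 149 bases before its start site and on the minus strand 65 bases before it. In the second Rbpj window the minus-strand match lies 205 bases before the start site. The annotated Rbpj gene runs from 53555779 to 53657445, so the window shown lies inside the gene and not before its first base. The Jag1 window held none, and neither window held TGACNNNGC, a core of the antioxidant response element. Of 32851 windows of this length in the table, 21.6% held TGGGAA and 10.2% held TGACNNNGC on either strand. The 4 other genes with a window (Notch1, Notch2, Adam10 and Maml1) had no match to either pattern. Hes1 and Dtx4 had no entry. A match of letters is a description of the sequence and not a measured binding site.

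The deposited values are log2 expression levels, so a difference of 1 is a 2-fold difference. The level filter was 5.37, the median of all values. A level below it was not shown to be above background, so its difference from another level is given as a bound, with 5.37 in its place. Of the 8 genes, 7 reached the filter on at least 1 array and entered the fit over 11516 genes. Each difference at 1 time point is between 2 single arrays and has no replicate check. Over the 3 time points limma was fitted with treatment and time as terms. Its p-values set the mean difference against a spread that combines 2 sources. The first is how much the gene's own heme minus vehicle difference varied between the time points (2 degrees of freedom). A change with time that both treatments share is not part of it. The second is a value drawn from all genes (7.17 degrees of freedom).

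All 6 macrophage markers on the list (Adgre1, Csf1r, Mertk, Cd68, Fcgr1 and Cd14) were above the filter on every array. Of 6 dendritic cell markers, Itgax, Ccr7 and H2-Ab1 were above it on every array and Flt3, Zbtb46 and Cd209a on none. At 6, 24 and 72 h the median difference was -0.27, 0.04 and 0.23 for the macrophage list. It was 0.25, 0.26 and 0.25 for the dendritic cell list, including the markers below the filter. Cd14, Csf1r, Ccr7 and H2-Ab1 were higher and Fcgr1 lower in heme at each time point, while Adgre1, Mertk, Cd68 and Itgax varied in sign. Neutrophil markers passed on 3 to 6 of 6 per array, and their median difference was 0.22, 1.89 and -0.01 at 6, 24 and 72 h. The 3 lymphocyte, 2 erythroid and 4 mast cell markers measured were below the filter on all arrays. The 6 h heme array had a higher median than the 6 h vehicle array, by 0.11 over all probe sets, and the median difference over the 11516 genes was -0.10, -0.02 and 0.03 at 6, 24 and 72 h. In bulk RNA, a change in the share of cells that express a gene and a change per cell cannot be told apart.

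Jag1 encodes a membrane-bound Notch ligand. Its level was 6.81, 7.15 and 7.82 in heme at 6, 24 and 72 h, against 5.09, 4.97 and 5.20 in vehicle. All 3 heme arrays were above the filter and all 3 vehicle arrays below it, so the groups did not overlap and the vehicle level has only an upper bound. The heme arrays averaged 7.26 ± 0.51 and the vehicle arrays 5.09 ± 0.11 (SD, n = 3 time points each). The measured difference was 1.73, 2.18 and 2.62 at 6, 24 and 72 h, and the bound was at least 1.44, 1.77 and 2.44. Over the 3 time points Jag1 rose by 2.17 ± 0.45 (SD, n = 3 time points), at least 1.88 or 3.69-fold (limma, adjusted p = 5.65e-04). The fit used the measured vehicle values.

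Among the heme arrays the order of Jag1 was 72 h, then 24 h, then 6 h, with gaps of 0.67 and 0.33. With 1 array per time, these gaps have no test of their own. The vehicle arrays ranged only from 4.97 to 5.20, all below the filter. The adjusted p of Jag1 stayed under 0.05 in each of the 10 alternative settings. It was closest to 0.05 without the 24 h pair of arrays (limma, adjusted p = 0.0486) and without a time term (limma, adjusted p = 0.0429). None of these settings put the filter level in place of the vehicle values. Whether Jag1 passes with that level in their place was not tested.

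**Figure D1:**
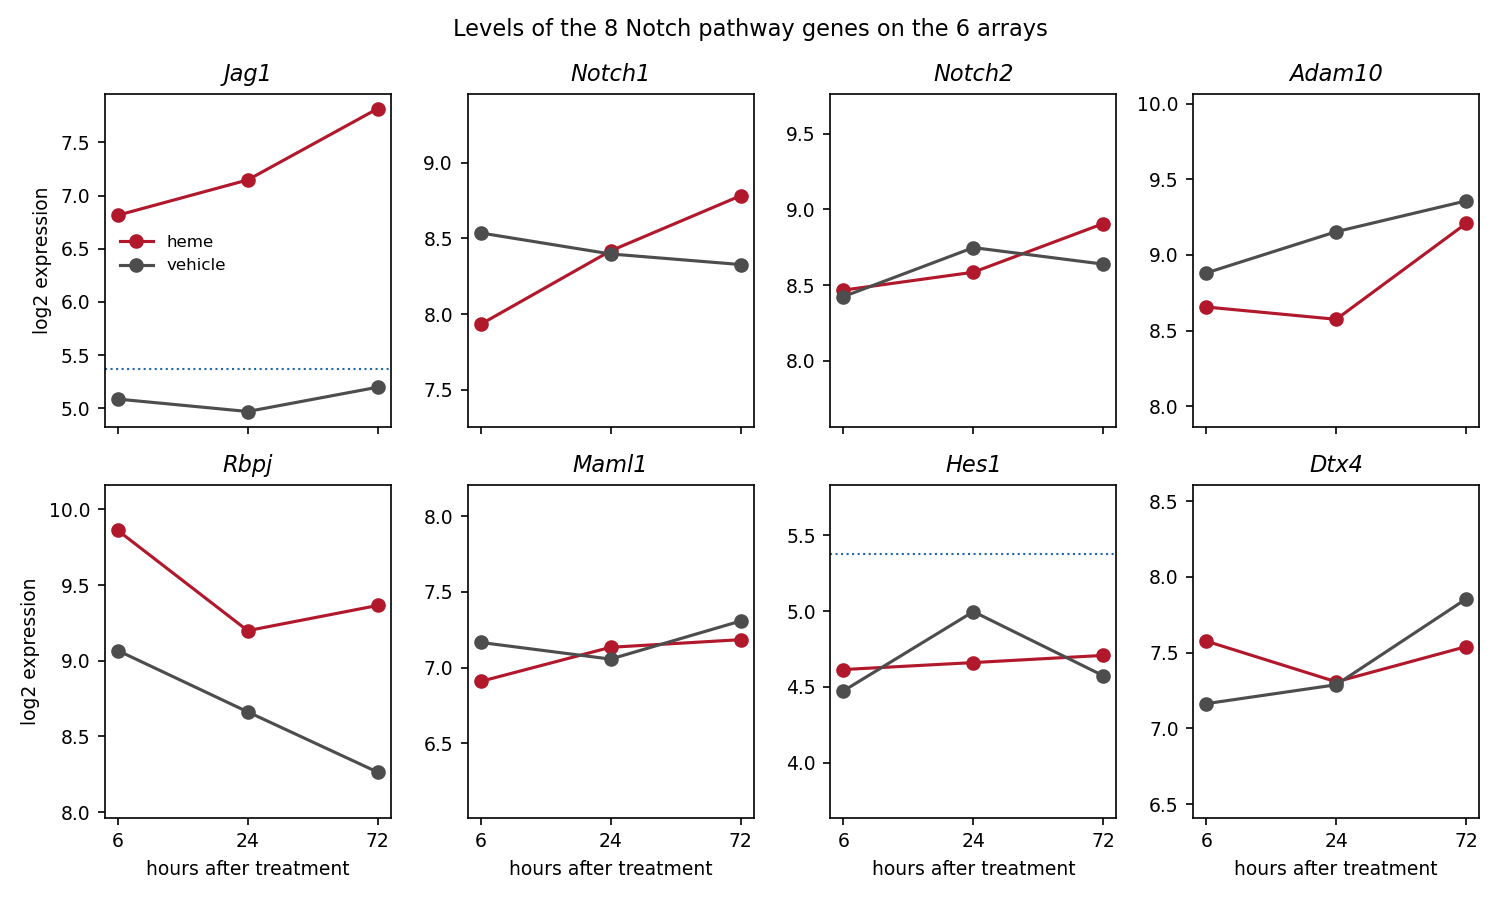
Log2 expression (vertical axis, own range of at least 2.2 in each panel) of the 8 genes by hours after treatment (horizontal axis, evenly spaced), 1 point for each array, red for heme and grey for vehicle; the dotted line is the level filter of 5.37 where it falls in the panel. The heme points of Jag1 lie between 6.81 and 7.82, above the filter, and its vehicle points below it; Rbpj is higher in heme at each time, and Hes1 stays under the filter.

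Other cell types that can express Jag1 were read from marker lists. Of 7 fibroblast and stroma markers, 4 were above the filter on at least 1 array (Col1a1, Col1a2, Col3a1 and Dcn), and Lum, Pdgfra and Pdgfrb on none. Their summed linear level ranged from 341 to 840 in heme and from 412 to 627 in vehicle, and their median difference was -0.16, 0.09 and 0.19 at 6, 24 and 72 h. The fibroblast gene Dcn was 6.27 in heme and 7.20 in vehicle at 6 h, and 8.50 and 8.11 at 72 h. Col1a2 was 6.36 in heme and 6.63 in vehicle at 6 h, and 7.82 and 7.01 at 72 h. Of 6 endothelial markers only Kdr passed the filter on any array. Kdr was at 5.598, 5.03 and 5.04 in heme, against 6.26, 5.76 and 5.29 in vehicle, with both 72 h levels below the filter. The megakaryocyte list was led by Pf4, which macrophages also express, at 10.42, 11.65 and 12.41 in heme and 9.44, 9.39 and 10.01 in vehicle. Its Itga2b passed only on the 72 h heme array and Gp9 on none. The part of macrophages, dendritic cells, neutrophils, or stromal, endothelial or Pf4-expressing cells in the Jag1 result was not tested.

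The receptors did not pass the test in either direction. Notch1, a main receptor of developing blood cells, had levels of 7.93, 8.42 and 8.78 in heme at 6, 24 and 72 h, against 8.54, 8.40 and 8.33 in vehicle. In heme the 6 h array was the lowest of all 6 and the 72 h array the highest, while the vehicle arrays differed by at most 0.21. The heme minus vehicle difference was therefore -0.60, 0.02 and 0.45 at 6, 24 and 72 h, with a mean of -0.04 ± 0.53 (SD, n = 3 time points; limma, adjusted p = 0.97).

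Notch2 is the receptor that marginal zone B cells and a subset of splenic dendritic cells depend on in mice. Its level was 8.47, 8.58 and 8.91 in heme and 8.42, 8.75 and 8.64 in vehicle. The groups overlapped. Its differences of 0.04, -0.16 and 0.27 averaged 0.05 ± 0.22 (SD, n = 3 time points; limma, adjusted p = 0.954). At 6 h its small difference changed sign after median-centring (-0.07).

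Adam10 encodes the protease that makes the first cut in a ligand-bound receptor. Its level was 8.66, 8.58 and 9.21 in heme and 8.88, 9.15 and 9.36 in vehicle. It was lower in heme at each time point, by 0.22, 0.58 and 0.15, yet the levels of the groups overlapped across times. Its mean difference of -0.32 ± 0.23 (SD, n = 3 time points) did not pass (limma, adjusted p = 0.488).

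Rbpj encodes the DNA-binding protein through which all Notch receptors act on genes. Its level was 9.86, 9.20 and 9.37 in heme at 6, 24 and 72 h, against 9.07, 8.66 and 8.26 in vehicle. The lowest heme array, at 24 h, lay 0.13 above the highest vehicle array, at 6 h, so the groups did not overlap. That gap was smaller than the SD that limma used for Rbpj (0.19), which is partly drawn from all genes. The differences were 0.79, 0.54 and 1.10, and Rbpj rose by 0.81 ± 0.28 (SD, n = 3 time points; limma, adjusted p = 0.0329). Of the 11516 genes, 119 (1.03%) were at least 0.54 above vehicle at every time point.

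The call for Rbpj was lost without the 24 h pair of arrays (limma, adjusted p = 0.247), without the 72 h pair (limma, adjusted p = 0.105), without a time term (limma, adjusted p = 0.522) and with the mean of its 2 probe sets (limma, adjusted p = 0.183). The second probe set, 10521911, was below the level filter on all 6 arrays (4.19 to 4.62) and differed by 0.30, -0.03 and 0.11, so the rise rests on probe set 10521913. RefSeq lists 3 Rbpj pseudogenes, and whether the probes also match them was not tested.

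Maml1, a co-activator in the complex with RBPJ, had levels of 6.91, 7.13 and 7.18 in heme and 7.17, 7.06 and 7.31 in vehicle. The groups overlapped. Its mean difference was -0.10 ± 0.17 (SD, n = 3 time points; limma, adjusted p = 0.901).

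Hes1, a transcriptional repressor induced by Notch in many tissues, had levels of 4.61, 4.66 and 4.71 in heme and 4.47, 4.997 and 4.57 in vehicle. Every one of these lay below 5.37, so Hes1 was left out of the fit and its differences have no size. A change of Hes1 was not detectable on these arrays.

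Dtx4 encodes a ubiquitin ligase of the Deltex family, which binds the inner part of Notch. Its level was 7.58, 7.31 and 7.54 in heme and 7.16, 7.29 and 7.85 in vehicle. The order of the treatments turned between times, with heme the higher at 6 h and vehicle the higher at 72 h. Its differences of 0.41, 0.02 and -0.315 averaged 0.04 ± 0.36 (SD, n = 3 time points; limma, adjusted p = 0.969).

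Of the 7 genes in the fit, 2 rose and 0 fell, while 1.72% of all 11516 genes passed at an adjusted p of 0.05. That background is 198 genes, of which 130 were higher (1.13%) and 68 lower (0.590%) in heme. Genes at least 2-fold higher at a single time were Jag1 at 6 h (background 0.964%), Jag1 at 24 h (1.42%), and Jag1 and Rbpj at 72 h (1.25%). None of the 7 was 2-fold lower at any time, where the background was 0.669%, 0.486% and 0.608%. Since the genes were listed with results known, the share of them that passed is not read as a property of the pathway.

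**Figure D2:**
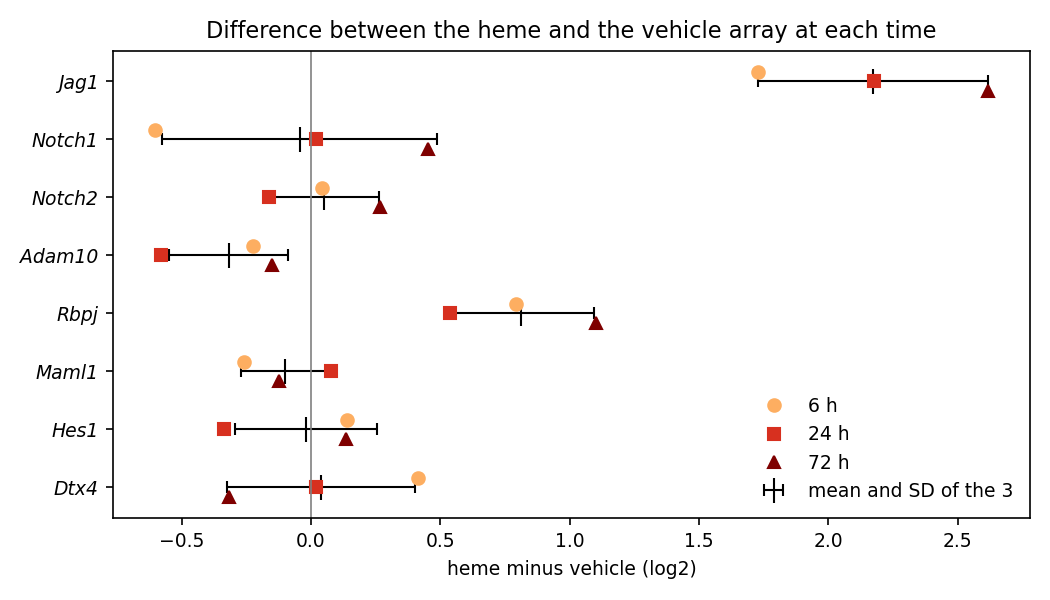
Heme minus vehicle difference in log2 expression (horizontal axis) for each of the 8 genes (rows); circles, squares and triangles are 6, 24 and 72 h, and the black bar is the mean with the SD of the 3 differences. Jag1 spans 1.73 to 2.62 and Rbpj 0.54 to 1.10, both to the right of 0, whereas the points of Notch1 and Dtx4 lie on both sides of it; the differences of Jag1 are measured values, not bounds.

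The rest of the pathway was read from a list of Notch pathway genes that includes the 8, arranged by role, of which 51 were analysed here. Of the 51, 42 passed the level filter, of which 2 rose in heme (Jag1 and Rbpj), 0 fell and 40 did not pass. That is 4.76% of the list beside 1.72% of all genes. Without the 8 genes above, 0 of 35 passed, and 4 of 35 (11.4%) had an unadjusted p below 0.05 in limma, beside 10.6% of all genes. The median difference of the 42 was -0.12, 0.01 and -0.03 at 6, 24 and 72 h, close to the medians of all genes given above.

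Among 7 ligand genes Jag1 was the one that rose. The classical ligand genes Jag2, Dll1, Dll3 and Dll4 were below the filter on all 6 arrays. The related Dlk1 and Dlk2 lay near it, at 5.46 to 5.76 in heme and 5.27 to 5.73 in vehicle. Of 4 receptor genes, Notch4 was below the filter on every array. Notch3 was 5.69 to 5.82 in heme and 5.46 to 5.62 in vehicle, 0.21 ± 0.02 higher (SD, n = 3 time points), and did not pass (limma, adjusted p = 0.689).

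Of 9 measured genes for receptor cleavage, 0 passed in either direction. They include the furin protease, ADAM10 and ADAM17, and subunits of gamma-secretase. Lower values in heme at all 3 time points were seen for 5 of the 9, where 17.4% of all genes showed this, and higher ones for 1, Adam17, where 12.8% of all genes did. These are counts of measured signs, with no test. Of the 7 nuclear genes measured, Rbpj rose and 6 did not pass. The co-activator gene Maml2 came nearest to passing. Its level was 6.96, 7.75 and 8.02 in heme and 7.90, 8.26 and 8.53 in vehicle. It was lower by 0.95, 0.52 and 0.51 (limma, adjusted p = 0.0697), and the groups overlapped across times. After median-centring Maml2 passed as lower (limma, adjusted p = 0.0422). That setting lowered the 6 h difference of every gene by 0.11, and genes called lower over all genes went from 68 to 114.

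Target genes were mostly too low to follow. Of 6, Hes1, Hey2, Heyl and Nrarp were below the filter on all arrays. Hes5 was 6.04 to 6.26 in heme and 6.05 to 6.16 in vehicle (limma, adjusted p = 0.929). Hey1 was under the filter on the 24 h and 72 h heme arrays and at 5.398 to 6.06 in vehicle (limma, adjusted p = 0.645). The 13 genes of receptor or ligand turnover, among them Numb, Itch, Fbxw7 and the Deltex genes, and the 5 genes of Notch glycosylation, among them the Fringe genes Lfng, Mfng and Rfng, had 0 members that passed.

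**Figure D3:**
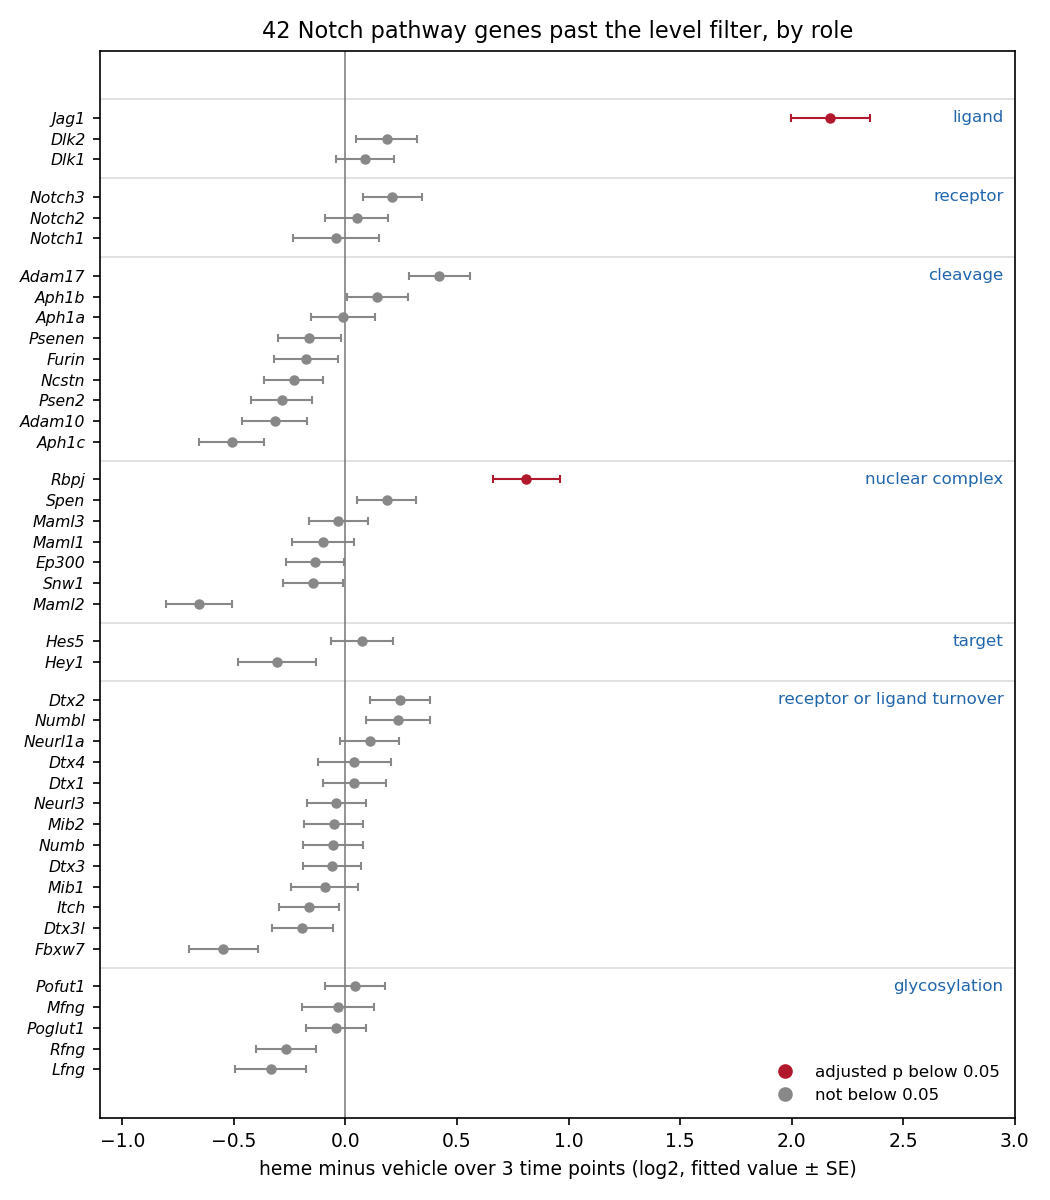
Fitted heme minus vehicle difference over the 3 time points in log2 units, with its standard error, for the 42 Notch pathway genes past the level filter, grouped by role (blue). The 2 genes in red, Jag1 and Rbpj, passed an adjusted p of 0.05, and the other 40, in grey, did not.

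Heme and vehicle levels did not overlap, with heme higher, for 7 of the 42 genes, where 5.40% of all genes showed this. They did not overlap with heme lower for 1 of the 42, beside 5.85% of all genes. Both Jag1 and Rbpj were among the 7. Another of them, Numbl, was above the filter on the 72 h heme array alone, so its order is not shown above background, and the vehicle levels of Jag1 were below the filter as well. These counts are descriptions, since a gene can enter through the group in which it is high.

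Time in culture was compared in the same fit, as 72 h minus 6 h over the heme and the vehicle array of each time. None of the 7 fitted genes of the 8 passed, while 6.59% of all genes did (759, of which 352 or 3.06% were higher and 407 or 3.53% lower at 72 h). Rbpj came nearest, with levels of 9.37 in heme and 8.26 in vehicle at 72 h, against 9.86 and 9.07 at 6 h. The difference was -0.50 in heme and -0.80 in vehicle (fitted value -0.65 ± 0.19, SE; limma, adjusted p = 0.0787). Adam10 was higher at 72 h by 0.55 in heme and 0.48 in vehicle (limma, adjusted p = 0.144). In Jag1 the 72 h minus 6 h difference was 1.0015 in heme, and 0.11 in vehicle between levels below the filter, and in Notch1 it was 0.85 in heme and -0.21 in vehicle. Whether those changes differ between treatments could not be tested, since an interaction leaves no residual degrees of freedom.

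Of the 42 genes on the wider list, 4 passed with time, which is 9.52% beside 6.59% of all genes. Neurl3, a ubiquitin ligase gene related to fly neuralized, was higher at 72 h by 1.30 in heme and 1.34 in vehicle (limma, adjusted p = 0.00164). Furin, the protease that matures Notch receptors, was lower by 1.06 in heme and 1.06 in vehicle (limma, adjusted p = 0.00746). Maml2 was higher by 1.06 in heme and 0.62 in vehicle (limma, adjusted p = 0.0236), and the gamma-secretase gene Psen2 by 0.69 in heme and 0.82 in vehicle (limma, adjusted p = 0.0285). Without the 24 h pair 2 of the 42 passed.

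**Figure D4:**
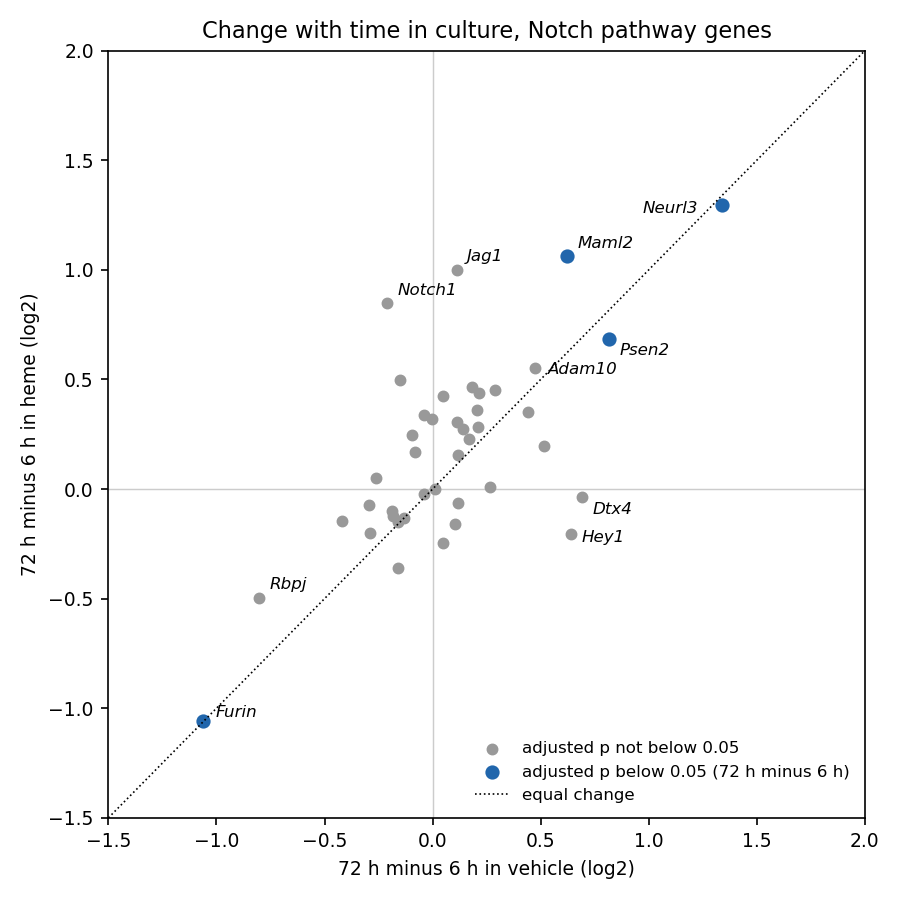
Change from 6 h to 72 h in log2 expression in heme (vertical axis) and in vehicle (horizontal axis) for the 42 Notch pathway genes, 1 point per gene; blue points passed the test of 72 h minus 6 h and the dotted line marks equal change. Furin (-1.06 in heme, -1.06 in vehicle) lies on the line, while Jag1 (1.0015 in heme, 0.11 in vehicle) and Notch1 (0.85 in heme, -0.21 in vehicle) lie above it and Dtx4 (-0.04 in heme, 0.69 in vehicle) below.

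The genes most like Jag1 over the 6 arrays were taken by Pearson's r among 1428 protein-coding genes with a range of at least 1. They were Me1, malic enzyme (r = 0.988), Slc25a37, a mitochondrial iron importer (r = 0.984), Gsr, glutathione reductase (r = 0.98), Il21r, a cytokine receptor (r = 0.979), and Treml4, a receptor of splenic macrophages (r = 0.978). The arrays fall into 2 treatments and share time points, so r mostly describes the gap between heme and vehicle and is given with no test. Me1 had 6.62, 7.33 and 7.59 in heme, against 4.97, 4.96 and 4.80 in vehicle, with every vehicle array below the filter as for Jag1. Slc25a37 had 6.91, 7.24 and 7.71 in heme and 6.15, 6.19 and 6.39 in vehicle. In both genes, as in Jag1, heme levels were lowest at 6 h and highest at 72 h. Rbpj had a lower likeness to Jag1 (r = 0.697), its heme level being highest at 6 h.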

How the data were processed

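The authors deposited log2 expression values for 35556 probe sets on 6 arrays, obtained in ArrayStar through RMA and quantile normalization, per the series' design text and the submitters' processing notes. Tool versions and genome build: not given in the sources used here. RMA compresses differences of dim probe sets. Of the probe sets, 21789 named 1 gene, 1621 several and 12146 none in the annotation supplied; 21698 matched RefSeq (GRCm38.p6) by gene identifier. The probe set with the highest mean stood for each of 19938 genes, and 11516 genes reached the median of all values (5.37) on at least 1 array. A limma model (version 3.58.1, R 4.3.3; two-sided, Benjamini-Hochberg over all 11516) had terms for treatment and for time. It left 2 residual degrees of freedom, with 7.17 more from the eBayes prior. A run on simulated data had no time effect, so it does not show how the model handles the time effects of these data. Python 3.11.15 drew the figures. With 1 array per treatment and time, the number of arrays limits the precision.

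The members and lists were chosen with earlier results of these data known. Genes named were the 8, list genes past either fit or at least 2-fold different at a time, and the 5 most like Jag1; likeness to Hes1, planned as well, is not given because Hes1 stayed below the filter. Other list genes are named for their counts after their values were seen. Alternatives were median-centring, cyclic loess, no level filter, averaging a gene's probe sets, adding 16 on the linear scale, a variance trend, dropping the second term, and leaving out time points.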

Additional observations from a re-analysis of the deposited data

Results flagged for a closer look

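The heme minus vehicle difference of 2 of the 8 genes had opposite signs at 6 h and 72 h, with both at least 0.2 on the log2 scale. Notch1 differed by -0.60 at 6 h and by 0.45 at 72 h. Dtx4 differed by 0.41 at 6 h and by -0.315 at 72 h. These signs were the same after median-centring and after cyclic loess, where Notch1 differed by -0.72 and -0.51 at 6 h and by 0.46 and 0.40 at 72 h, and Dtx4 by 0.30 and 0.49 at 6 h and by -0.31 and -0.37 at 72 h. Each value is a difference of 2 single arrays, and the difference between the time points was not tested.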

How the results depend on the processing

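Time stood as a term in the fit, so heme and vehicle were compared within each time point. Pairing by mouse or culture was not possible, because each treatment and time has 1 array and the labels do not link the arrays. Of 126 values of the 7 genes under the alternatives, 119 kept their direction and side of the threshold, 4 (all of Rbpj, given above) lost the call and 3, none past the threshold before or after, changed sign when a pair of arrays was left out: Notch1, -0.29 to 0.24, and Dtx4, -0.15 to 0.22, were each turned without the 6 h pair, and Notch2, -0.0599 to 0.16, without the 72 h pair. Genes changed by heme numbered 198, 18 without a time term, and from 12 (without the 24 h pair) to 521 (without the 6 h pair) when a pair was left out. Each such fit had 1 residual degree of freedom, and the one without the 6 h pair a prior of 46.9. Notch list genes changed by heme numbered 2, 1 without a time term, 1 with the mean of probe sets, and 1 to 3 without a pair; 1 of the 3 after median-centring (Maml2) and 1 of the 3 without the 6 h pair (Fbxw7) was lower. With time, 759 genes changed, 318 without a treatment term and 412 without the 24 h pair; of the Notch list 4 changed, 2 without a treatment term and 2 without the 24 h pair. The cause of these changes was not tested. Of calls by heme 65.7% were higher, 76.2% after cyclic loess and 58.1% after median-centring, which moved the 6 h difference by 0.11. Levels below 5.37 limit what can be said of Hes1, of Jag1 in vehicle and of 8 other list genes below it on every array. Numbl, Hey1, Dlk1, Dlk2 and Dtx1 were below it on some arrays and are limited there.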

Other observations

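Besides Maml2, described above, 3 list genes outside the 8 had an unadjusted p below 0.05 for heme in limma without passing over all genes, and they were picked out after their values were seen. Adam17, a protease that also sheds Tnf and other surface proteins, was 9.99, 10.26 and 10.18 in heme and 9.42, 9.80 and 9.94 in vehicle, with a mean difference of 0.42 ± 0.16 (SD, n = 3 time points; limma, adjusted p = 0.247). Aph1c, a gamma-secretase subunit gene, was 7.44, 7.97 and 7.86 in heme and 8.22, 8.33 and 8.26 in vehicle, with a mean difference of -0.51 ± 0.23 (limma, adjusted p = 0.163). Fbxw7, which encodes a ubiquitin ligase subunit that targets the freed Notch fragment, was 8.10, 8.12 and 8.45 in heme and 8.42, 9.03 and 8.86 in vehicle, with a mean difference of -0.55 ± 0.32 (limma, adjusted p = 0.166), and it passed as lower without the 6 h pair (limma, adjusted p = 0.0205). Adam17 was higher and the other two lower in heme at each time point.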
